A study of Mus musculus with 4 samples.

Results

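Nodal signalling was examined through the histone acetylation around 4 of its genes, Nodal, Tdgf1, Lefty1 and Lefty2, in mouse embryonic stem (ES) cells sorted by Zscan4 state. The listed regions were chosen by position on the mouse build mm9, as all those that overlap one of 3 windows. The Nodal window was chr10:60860000-60910000, the Tdgf1 window chr9:110815000-110870000 and the window of Lefty1 and Lefty2 chr1:182800000-182890000. Of the 23946 regions in the deposited list, 14 met this rule, with 2 in the Nodal window, 5 in the Tdgf1 window and 7 in the window of Lefty1 and Lefty2. The rule uses position alone, although it was set with earlier results of these data known.

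Nodal is a secreted ligand of the transforming growth factor beta family. It signals through activin receptors with the help of a membrane-bound co-receptor, Cripto, which Tdgf1 encodes, and the signal is carried to the nucleus by SMAD2 and SMAD3 with partners such as FoxH1. Lefty1 and Lefty2 encode secreted inhibitors of Nodal that are themselves switched on by the pathway, so that they form a negative feedback loop. In mouse ES cells the ligand, the co-receptor and both inhibitors are expressed, and the pathway is active through ligand that the cells make.

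The mark measured was H3K27ac, acetylation of lysine 27 on histone H3, which is found at active promoters and enhancers. Chromatin immunoprecipitation followed by sequencing was done on MC1-ZE7 ES cells, of strain MC1 (129S6/SvEvTac), grown without feeders on gelatin in serum medium with LIF. Cells were sorted on Emerald, a green fluorescent protein, into an Emerald-negative fraction (called Zscan4-) and the high fraction of Emerald-positive cells (called Zscan4+), with 2 libraries each. All 4 libraries share the line, the reporter and the medium, and the promoter that drives Emerald is not given in the sources used here. No genotype or agent differed between the groups. The files carry no gene names, so the labelled cell type was not checked against markers here, and no input library was used.

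Libraries held between 9939134 and 18284394 reads, as worked out from the steps of the values. Levels are RPKM, the reads of a region scaled to its length in kilobases and to all reads of the library, and RPM is the same measure without the length. Between 12.97% (Zscan4+ replicate 1) and 19.14% (Zscan4+ replicate 2) of a library's reads lay in listed regions, with 16.74% and 17.88% in Zscan4- replicates 1 and 2. Zscan4+ replicate 1 therefore stands apart, and it was the lowest of the 4 libraries in 12 of the 14 regions and in 65.4% of all listed regions. Whether replicates are separate cultures is not said in the labels, and p-values here cover only the spread among the 4 libraries, which may be technical. The labels do say that the second replicates were amplified before size selection, at 200 to 500 bp in place of 200 to 300 bp. In bulk chromatin, a mark on fewer cells and less of the mark per cell cannot be told apart.

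No sequence of the listed regions is shown, because no mm9 genome was used here. RefSeq's promoter table (build GRCm38.p6, 250 bases before to 50 bases after a gene's start) matched 2 of the 4 genes, Tdgf1 and Nodal. Both are printed 5′ to 3′ because they belong to the ligand and the co-receptor, the genes of the windows described first, but their GRCm38.p6 positions are not comparable with mm9 and no listed region was assigned to them. The Tdgf1 promoter is chr9:110946109-110946408 on the minus strand and the Nodal promoter is chr10:61417722-61418021 on the plus strand. Capitals mark matches, on either strand, to 4 motifs: CAGAC (a SMAD box), AATNNACA (FoxH1-type), ATGCAAAT (the octamer of POU factors) and GGGNGTGG (KLF-type, added after the Tdgf1 sequence had been read).
Tdgf1: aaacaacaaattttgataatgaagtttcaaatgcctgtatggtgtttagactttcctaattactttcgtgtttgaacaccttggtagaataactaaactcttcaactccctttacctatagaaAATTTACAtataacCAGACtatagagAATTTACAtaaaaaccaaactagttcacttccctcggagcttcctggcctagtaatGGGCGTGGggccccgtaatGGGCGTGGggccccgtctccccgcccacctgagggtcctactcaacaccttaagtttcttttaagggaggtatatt
Nodal: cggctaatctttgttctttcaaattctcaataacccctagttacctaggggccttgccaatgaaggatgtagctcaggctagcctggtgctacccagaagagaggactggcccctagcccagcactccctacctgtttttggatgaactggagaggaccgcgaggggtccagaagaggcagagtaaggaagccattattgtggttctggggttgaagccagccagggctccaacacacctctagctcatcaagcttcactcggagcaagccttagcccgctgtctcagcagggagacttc
The Tdgf1 promoter held 2 FoxH1-type matches, whose first bases lie at -127 and -101 from the gene's start, with 1 SMAD box match between them at -113. It also held 2 KLF-type matches, at -45 and -26. Among 32851 promoters of the same length, 49.6% held CAGAC, 12.2% AATNNACA, 1.74% ATGCAAAT and 17.6% GGGNGTGG. The Nodal promoter held none of these letters in this window. Its GC content was 54.0%, against 41.7% for the Tdgf1 promoter and a median of 52.7% over all promoters of the table. These matches describe the sequence and are not evidence of binding.

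Of the 14 regions, 1 passed the test, a weak region of the Nodal window, R01901, which was lower in Zscan4+ cells. With a limma adjusted p no higher than 0.05 as the limit, 6.82% of all listed regions were called lower and 8.01% higher. Among the 14 regions 1 and 0 were, so the lower call is near the share of the whole list. The same 1 region was called with the replicate number as a block, where the list's shares were 10.9% and 9.35%. The strongest region of each window had a lower mean in Zscan4+ cells, but by less than the SD between the Zscan4+ libraries. Of the 14 regions, 13 had a log2 difference below 0, with a median of -0.44, on a list in which 61.7% of regions did and the median was -0.17. That list median was -0.07 after each library was centred on its own median, and the median of the 14 regions was then -0.35. Differences are Zscan4+ minus Zscan4- in log2(RPKM + 0.5), where the added 0.5 shrinks differences at low levels, and their p-values come from limma with Benjamini-Hochberg adjustment over all 23946 regions.

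Nodal, the ligand, had a window with 1 very strong and 1 very weak region, and both had lower means in Zscan4+ cells. The strong one, R01902 (chr10:60879074-60879367, 293 bp), had 51.16 and 60.72 RPKM in Zscan4- replicates 1 and 2, and 29.31 and 55.31 RPKM in Zscan4+ replicates 1 and 2. Zscan4+ replicate 1 was the low library and the groups overlapped, because Zscan4+ replicate 2 lay above Zscan4- replicate 1. Its mean was 55.9 ± 6.76 RPKM over the Zscan4- libraries and 42.3 ± 18.4 RPKM over the Zscan4+ libraries (SD, n = 2), with a log2 difference of -0.46, a standard error of 0.44 and a limma adjusted p of 0.55. The 95% interval of that difference ran from -1.32 to 0.39, so it holds both no difference and a drop of more than 1 on the log2 scale. The mean of R01902 over the 4 libraries, 49.1 RPKM, was above that of 99.6% of listed regions.

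The weak region of the Nodal window, R01901 (chr10:60868788-60869084, 296 bp), was the 1 region called lower, on a list where 6.82% of regions were. It had 3.06 and 3.04 RPKM in Zscan4- replicates 1 and 2, and 0.37 and 2.12 RPKM in Zscan4+ replicates 1 and 2. Both Zscan4+ libraries were below both Zscan4- libraries, and Zscan4+ replicate 1 was far the lowest. The log2 difference was -1.23 (standard error 0.37, limma adjusted p = 0.0089), and the replicates alone gave -2.03 and -0.43. Those levels rest on 9 and 16 reads in Zscan4- and on 2 and 10 reads in Zscan4+ cells.

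Counting error alone is therefore wide at R01901. In replicate 1 the ratio of Zscan4+ to Zscan4- reads, relative to library totals, was 0.121 with an exact 95% counting interval of 0.0127 to 0.584. In replicate 2 it was 0.697 with an interval of 0.283 to 1.63, which holds no difference. The call was lost when Zscan4+ replicate 1 was left out, where the log2 difference shrank to -0.44 (limma adjusted p = 0.32). It was also lost at an unshrunken difference, with larger standard errors of 0.47 to 0.55, at -1.23 without Zscan4- replicate 1 (adjusted p = 0.13), at -1.24 without Zscan4- replicate 2 (adjusted p = 0.33) and at -1.44 with voom on the recovered reads scaled to the reads in regions (adjusted p = 0.052). Without Zscan4+ replicate 2 the log2 difference was -2.03 (limma adjusted p = 0.0012). The 2 regions of the window lie 9990 bp apart, and R01901 was the weakest of the 14 in every library.

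**Figure D1:**
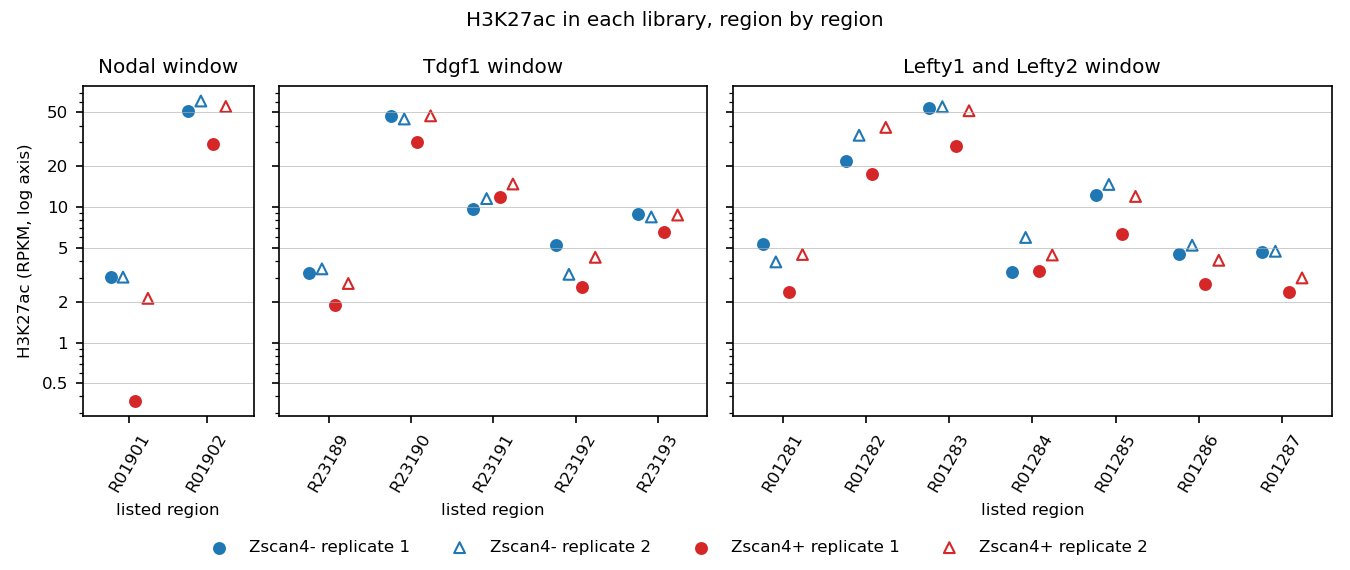
H3K27ac in RPKM on a log axis for each listed region of the Nodal, Tdgf1 and Lefty windows. Blue points are the Zscan4- libraries and red points the Zscan4+ libraries, with filled circles for replicate 1 and open triangles for replicate 2; Zscan4+ replicate 1 is the lowest point in 12 of 14 regions.

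Tdgf1, the co-receptor gene, had a window with 1 region strong in RPKM and 4 weaker ones, and none of the 5 passed the test. The strong region, R23190 (chr9:110850298-110850551, 253 bp), had 46.93 and 44.73 RPKM in Zscan4- replicates 1 and 2, and 30.48 and 47.17 RPKM in Zscan4+ replicates 1 and 2. The Zscan4+ libraries lay on both sides of the Zscan4- libraries, so the direction differed between replicates, at -0.61 and 0.08 on the log2 scale. The fitted log2 difference was -0.27 with a standard error of 0.43 and a 95% interval of -1.11 to 0.57 (limma adjusted p = 0.76). R23190 was above 99.1% of listed regions in mean level. By reads, the broader R23193 held more of the window, at 39.3% and 40.9% in Zscan4- and 42.2% and 39.4% in Zscan4+ replicates 1 and 2. R23190 held 30.9% and 32.1% in Zscan4- and 29.2% and 31.6% in Zscan4+ replicates 1 and 2.

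The narrowest region of the Tdgf1 window, R23191 (chr9:110862663-110862892, 229 bp), was the only one of the 14 with a log2 difference above 0. It had 9.67 and 11.56 RPKM in Zscan4- replicates 1 and 2, and 11.94 and 14.81 RPKM in Zscan4+ replicates 1 and 2. Both Zscan4+ libraries were above both Zscan4- libraries, by a margin of 11.94 against 11.56 RPKM at the closest. The log2 difference was 0.32 with a standard error of 0.38 and a 95% interval of -0.43 to 1.07 (limma adjusted p = 0.67), and the replicates gave 0.29 and 0.34. After median centring the limma adjusted p was 0.09, at a log2 difference of 0.41, and with the replicate block and median centring together it was 0.023, in a fit that called 20.7% of the list higher.

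The same reads can be given as a share of the window's reads, a measure that does not depend on how libraries are scaled. R23191 rose in each replicate (0.29 and 0.34) while the window's sum changed by -0.54 and 0.1 on the log2 scale. Within each replicate a larger share therefore follows from these values and is not further evidence. It held 5.76% (exact Clopper-Pearson 95% interval 3.64 to 8.59) and 7.51% (5.57 to 9.86) of the window's reads in Zscan4- replicates 1 and 2. In Zscan4+ replicates 1 and 2 it held 10.4% (7.78 to 13.4) and 8.97% (6.81 to 11.5). The groups did not overlap, but in each replicate the intervals of the 2 libraries did. Its level relative to R23190, the strong region 12112 bp away, was 0.206 and 0.258 in Zscan4- and 0.392 and 0.314 in Zscan4+ replicates 1 and 2.

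The other 3 regions of the Tdgf1 window had log2 differences between -0.48 and -0.18. R23189 (chr9:110841060-110841865) had 3.25 and 3.5 RPKM in Zscan4- and 1.9 and 2.73 RPKM in Zscan4+ replicates 1 and 2. It was the region of this window with the lowest log2 difference, -0.48 (standard error 0.35, limma adjusted p = 0.42), and its groups did not overlap. R23192 (chr9:110864512-110865781) had 5.23 and 3.19 RPKM in Zscan4- and 2.59 and 4.26 RPKM in Zscan4+ replicates 1 and 2. Its replicates went opposite ways, at -0.89 and 0.37 on the log2 scale. R23193 (chr9:110866991-110868695) had 8.86 and 8.46 RPKM in Zscan4- and 6.55 and 8.74 RPKM in Zscan4+ replicates 1 and 2, with overlapping groups. Summed over its 5 regions, the Tdgf1 window held 38.4 and 35.2 RPM in Zscan4- and 26.4 and 37.8 in Zscan4+ replicates 1 and 2. The log2 ratio of the group means was -0.2, with -0.54 in replicate 1 and 0.1 in replicate 2.

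**Figure D2:**
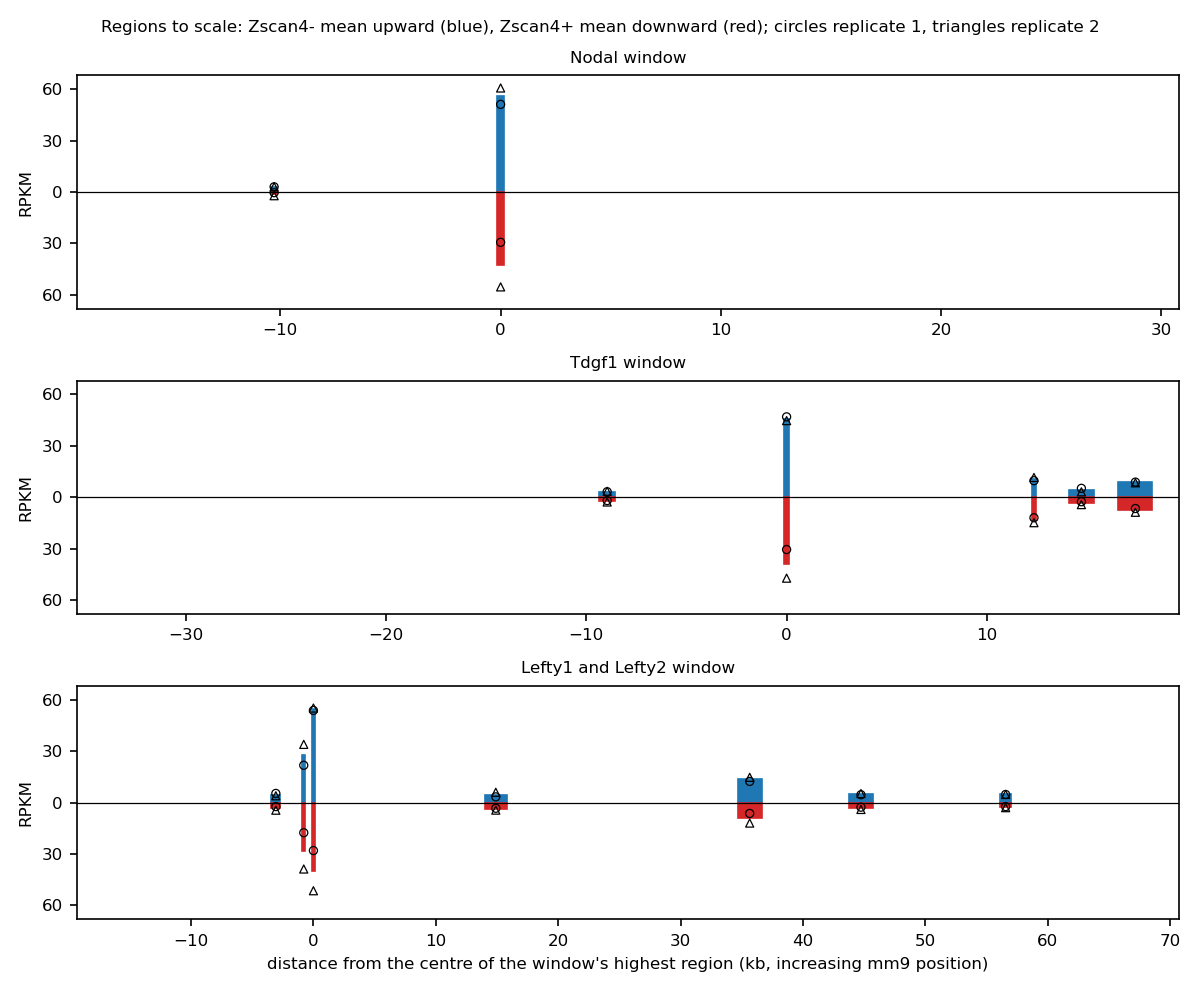
The 14 regions drawn to scale along the 3 windows, as distance in kb from the centre of each window's highest region. Bars show the mean RPKM of Zscan4- libraries upward in blue and of Zscan4+ libraries downward in red, with circles for replicate 1 and triangles for replicate 2; 1 narrow region stands out in the Nodal and Tdgf1 windows and a close pair in the window of Lefty1 and Lefty2.

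Lefty1 and Lefty2, the feedback inhibitors, share 1 window, and all 7 of its regions had log2 differences below 0 without any of them passing the test. No region of this window was assigned to either gene. The window's regions span 60.5 kb, and the first 3 of them, R01281, R01282 and R01283, lie within 3.57 kb. The strongest, R01283 (chr1:182819177-182819415, 238 bp), had 53.69 and 55.12 RPKM in Zscan4- replicates 1 and 2, and 28.04 and 51.46 RPKM in Zscan4+ replicates 1 and 2. Both Zscan4+ libraries were below both Zscan4- libraries, but Zscan4+ replicate 2 only narrowly. The log2 difference of R01283 was -0.51 with a standard error of 0.43 and a 95% interval of -1.36 to 0.34 (limma adjusted p = 0.5). In mean level it was above 99.5% of listed regions.

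Its neighbour R01282 (chr1:182818375-182818639, 264 bp), 538 bp away, differed widely between replicates. It had 21.72 and 33.91 RPKM in Zscan4- and 17.61 and 38.78 RPKM in Zscan4+ replicates 1 and 2. Replicate 2 was high in both groups. The log2 difference was -0.05, with a 95% interval of -0.86 to 0.76, and its direction turned under median centring (0.04) and quantile normalization (0.14). Of the window's reads, R01282 held 8.78% (6.72 to 11.2) and 11.4% (9.78 to 13.2) in Zscan4- replicates 1 and 2, and 12.0% (9.66 to 14.6) and 15.2% (13.1 to 17.4) in Zscan4+ replicates 1 and 2. Within each replicate the share was larger in the Zscan4+ library.

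The broad region R01285 (chr1:182853981-182855919, 1938 bp) held the largest share of the window's reads. It had 12.3 and 14.7 RPKM in Zscan4- and 6.38 and 11.99 RPKM in Zscan4+ replicates 1 and 2. Both Zscan4+ libraries were below both Zscan4- libraries, and the replicates gave log2 differences of -0.9 and -0.28. The fitted difference was -0.59 (standard error 0.38, limma adjusted p = 0.33). With the replicate block and median centring together, the limma adjusted p of R01285 was 0.0083, where 24.5% of the list was called lower. Under voom on the reads in regions its limma adjusted p was 0.021, in a fit that called 3791 of the 23946 listed regions lower. Its share of the window's reads was 36.5% and 36.3% in Zscan4- and 31.8% and 34.4% in Zscan4+ replicates 1 and 2.

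R01287 (chr1:182875396-182876339) had the lowest log2 difference of the window of Lefty1 and Lefty2. It had 4.69 and 4.72 RPKM in Zscan4- and 2.38 and 3.0 RPKM in Zscan4+ replicates 1 and 2. The 2 Zscan4- libraries were nearly equal and both Zscan4+ libraries were lower, with log2 differences of -0.85 and -0.58 in replicates 1 and 2. The fitted difference was -0.71 with a standard error of 0.35 and a 95% interval of -1.4 to -0.02 (unadjusted p = 0.043, limma adjusted p = 0.17). Pooled over replicates, 123 Zscan4- and 86 Zscan4+ reads gave a ratio of 0.566 with an exact 95% counting interval of 0.425 to 0.752. This does not set R01287 apart. Pooled intervals of R01283, R01284, R01285, R01286, R01901, R01902, R23189 and R23190 also lay wholly below 1. Those of R01281, R01282, R23191, R23192 and R23193 held 1. Among the regions with pooled intervals below 1, R01284 had a ratio of 1.02 in replicate 1 and R23190 one of 1.05 in replicate 2. Pooling weights libraries by their depth, and Zscan4+ replicate 1 was the deepest. The share of the whole list with pooled intervals below 1 was not worked out. Such intervals leave out the spread between replicates, which was beyond sampling noise. After median centring R01287 was called lower (limma adjusted p = 0.043), as 15.1% of all listed regions were.

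The other 3 regions of this window lay between 2.38 and 5.97 RPKM in all libraries. R01281 (chr1:182815846-182816604) had 5.31 and 3.94 RPKM in Zscan4- and 2.38 and 4.47 RPKM in Zscan4+ replicates 1 and 2, with replicates that went opposite ways. R01284 (chr1:182833315-182835088) had 3.29 and 5.97 RPKM in Zscan4- and 3.36 and 4.43 RPKM in Zscan4+ replicates 1 and 2, so that both Zscan4+ values lay inside the Zscan4- range. R01286 (chr1:182863089-182864996) had 4.54 and 5.23 RPKM in Zscan4- and 2.72 and 4.05 RPKM in Zscan4+ replicates 1 and 2, without overlap and with a log2 difference of -0.49. Summed over its 7 regions, the window held 65.3 and 78.6 RPM in Zscan4- and 38.9 and 67.5 in Zscan4+ replicates 1 and 2. The log2 ratio of the group means was -0.44, with -0.75 in replicate 1 and -0.22 in replicate 2.

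**Figure D3:**
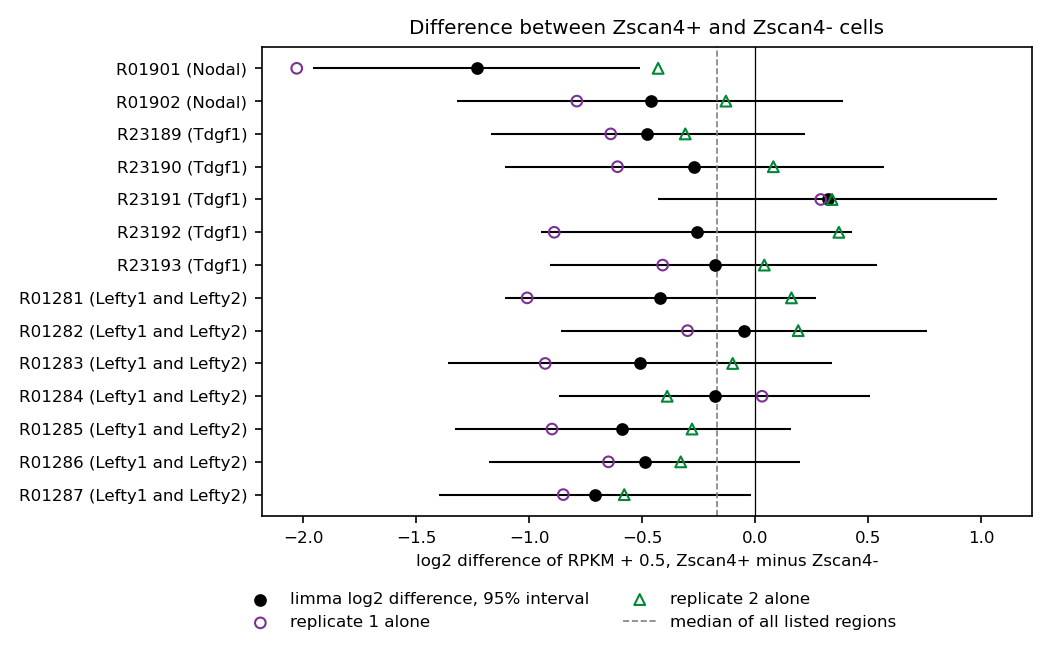
Log2 difference of RPKM + 0.5, Zscan4+ minus Zscan4-, for the 14 regions. Black points and lines are the limma estimate and its 95% interval, open circles replicate 1 alone, open triangles replicate 2 alone, and the dashed line the median of all listed regions (-0.17); only the intervals of R01901 and R01287 lie wholly below 0.

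Across the 3 windows, differences were smaller in replicate 2 than in replicate 1 by their median over the 14 regions, at -0.12 against -0.72, and 8 of the 14 regions kept 1 direction in both. In replicate 1, 12 of the 14 regions were lower in Zscan4+ cells, against 72.8% of all listed regions, and in replicate 2, 8 were, against 46.2%. Both replicates gave a lower value in 7 regions and a higher one in 1, R23191, where 44.9% and 25.8% of all listed regions did so. Both Zscan4+ libraries lay below both Zscan4- libraries in 6 of the 14 regions, against 35.1% of the list, and above them in 1, against 18.6%. With Zscan4+ replicate 1 left out, the median over the 14 regions was -0.02 and that over the list 0.09, and 0 of the 14 were called by limma, with 0 at an unadjusted p under 0.05. With Zscan4+ replicate 2 left out, the medians were -0.71 and -0.42, and 7 of the 14 were called lower, where 31.5% of all listed regions were. The part that the low share of reads in regions of Zscan4+ replicate 1 has in these differences was not tested.

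By RPKM, which divides by length, each of the 3 windows had a region of 238 to 293 bp at the top. In the window of Lefty1 and Lefty2 it was followed by a second strong one, R01282. By reads the windows differed across libraries. R01902 held 94.3% to 98.7% of its window's reads, R23190 held 29.2% to 32.1% and R01283 held 16.7% to 19.6%. In order of mean level, R01902 at Nodal (49.1 RPKM), R01283 in the window of Lefty1 and Lefty2 (47.1 RPKM) and R23190 at Tdgf1 (42.3 RPKM) came first, and these 3 did not keep 1 order across libraries. R01282 (28.0 RPKM) was the fourth in every library and clear of the next, R23191 (12.0 RPKM), R01285 (11.3 RPKM) and R23193 (8.15 RPKM), among which R01285 changed places with the other 2 between libraries. The other 7 regions had means of 2.15 to 4.26 RPKM, near or under the list's median of 4.62 RPKM. Apart from R01901, the weakest in every library, they changed places between libraries.

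Most of the strongest regions were narrow, here and on the whole list, but not all narrow regions were strong. Of the 14 regions, 6 were narrower than 300 bp, against 14.0% of the list. The regions above 40 RPKM numbered 3 here and 285 on the whole list, of which 76.5% were narrower than 300 bp. Among the 6 narrow regions were also R01901, the weakest of the 14, and R23191 (12.0 RPKM), and on the list 218 of 3353 narrow regions were above 40 RPKM. Both limits were set after the data had been seen. Those 285 regions had a median log2 difference of -0.211, with -0.522 in replicate 1 and 0.0919 in replicate 2, beside -0.51, -0.46 and -0.27 for R01283, R01902 and R23190.

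**Figure D4:**
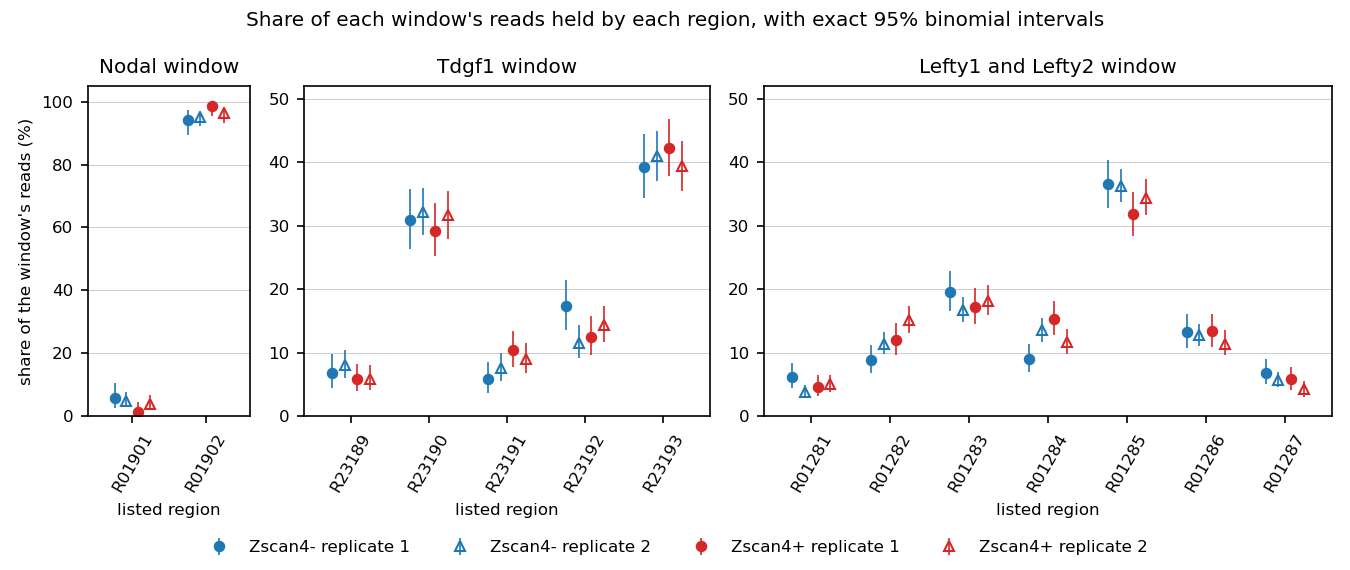
Share of a window's reads held by each of its regions, in percent, with exact 95% binomial intervals that cover counting error only. Blue marks are Zscan4- and red marks Zscan4+ libraries, with filled circles for replicate 1 and open triangles for replicate 2. The shares of R23191 and R01282 are higher in both Zscan4+ libraries than in both Zscan4- libraries. Those of R01901, R01285 and R23189 are lower in both Zscan4+ libraries. In the Nodal window the share of R01902 is what R01901 leaves. Shares within a window trade off against each other, and no such comparison was made over other windows.

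Regions just outside the windows gave a reference for the neighbourhood, and none of these 6 was called. Left of the Nodal window, R01900 (chr10:60857291-60857873) had a log2 difference of -0.25. Right of it, R01903 (chr10:60913879-60915644) had 5.07 and 5.74 RPKM in Zscan4- and 3.35 and 8.47 RPKM in Zscan4+ replicates 1 and 2. R01280 (chr1:182780610-182781538), left of the window of Lefty1 and Lefty2, had a higher mean in Zscan4+ cells, with 12.25 and 16.26 RPKM in Zscan4- and 11.79 and 23.42 RPKM in Zscan4+ replicates 1 and 2, a log2 difference of 0.23. On its right the next region, R01288 (chr1:183074051-183074808), lay 184 kb away, with a log2 difference of 0.04. The neighbours of the Tdgf1 window, R23188 (chr9:110798727-110800046) and R23194 (chr9:110897381-110898025), had log2 differences of -0.5 and -0.34.

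The strongest region of each window had close counterparts elsewhere on the list. Likeness was measured as the Euclidean distance of log2(RPKM + 0.5) over the 4 libraries. The regions nearest to R01283 were R15497 (chr4:117944660-117944898, distance 0.11) and R09148 (chr17:7031783-7032118, distance 0.13). R09148 was also the nearest to R01902 (distance 0.15), followed by R08786 (chr16:36071785-36072042, distance 0.2). The regions nearest to R23190 were R21316 (chr8:80663340-80663620, distance 0.11) and R21719 (chr8:109040293-109040604, distance 0.14). R09148 had 53.76 and 57.14 RPKM in Zscan4- and 30.53 and 51.94 RPKM in Zscan4+ replicates 1 and 2, beside 53.69, 55.12, 28.04 and 51.46 RPKM for R01283.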

How the data were processed

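Values were deposited by the authors as RPKM, rounded to 2 decimals, per the file headers, for 4 libraries over 1 shared list of 23946 regions. The submitters' processing notes name Bowtie, HOMER and the build mm9. Tool versions and the calling of regions are not stated by any source used here. Positions are printed as deposited. RPKM times region length fell on whole multiples of 1 step per library, taken as 1 read: 97.13% to 99.97% of values under 50 reads lay within 0.1 read of a whole number. Median regions held 56 to 107 reads, and 3 reads, the most that a count of 0 allows, equal 0.148 to 0.272 RPKM at the median width. Counting intervals cover counting error only.

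The comparison of Zscan4+ with Zscan4- used limma 3.58.1 (R 4.3.3) on log2(RPKM + 0.5), with a variance trend and a minimum mean of 0.5 RPKM, which removed no region. The fit was run on simulated data that held no library-wide shift and no replicate effect. That run therefore cannot show how the fit deals with a library like Zscan4+ replicate 1. Summaries used Python 3.11.15. Alternatives were the replicate block, pseudocounts of 0.1 and 1, no minimum or 2 RPKM, other scalings, no variance trend, a threshold of 0.10, voom, and each library left out. The labels give replicate 2 its own preparation, so replicate numbers pair the libraries (correlation of replicate differences between groups 0.35 across 23946 regions). Standard errors, intervals and adjusted p-values come from the fit without this pairing, except where the replicate block is named. Replicates of a group differed beyond sampling noise, at a chi-square per degree of freedom of 1.91 in Zscan4- and 2.93 in Zscan4+. The 14 regions and the lists were chosen with earlier results of these data known. Full statistics are given for called regions, and for the strongest region and the largest absolute difference of each window; other members are described by their values, and outside regions are the nearest neighbours and the 2 most alike. Statistics given for R23191, R01282 and R01285 go beyond this rule and were chosen after their values were seen. Other Nodal pathway genes were not analysed here, since no mm9 gene positions were used.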

Additional observations from a re-analysis of the deposited data

How the results depend on the processing

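Of 224 values of the 14 regions under the other settings, 198 kept their direction and side of the threshold, 11 passed it, 4 lost it (all R01901) and 11 turned direction. Some of the 198 could not have changed. The setting without a minimum repeats the main fit, since the minimum removed no region. The looser threshold reuses the main fit, so only calls could change. The replicate block alone, the minimum of 2 RPKM and the fit without a variance trend also gave the main differences. There too only calls were tested. R01282 turned to 0.04 under median centring (alone or together with the replicate block), 0.14 with quantile normalization and 0.05 with voom on the reads in regions. The other turned values came from leaving out 1 library. There R01282 ran from -0.61 to 0.51, R01284 from -0.57 to 0.2 and R23190 from -0.58 to 0.04. R23192 ran from -0.58 to 0.06 and R23193 from -0.38 to 0.01. Without Zscan4+ replicate 1, R01282 turned to 0.51, R23190 to 0.04, R23192 to 0.05 and R23193 to 0.01. R01282 turned to 0.26 and R01284 to 0.2 without Zscan4- replicate 2, and R23192 to 0.06 without Zscan4- replicate 1. No turned value was past the threshold, and the cause was not tested. The replicate block alone changed no call among the 14 regions, while lower calls on the whole list went from 1632 to 2603.

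With voom on the reads in regions, 1 of the 14 regions was called lower, R01285 (-0.49) in place of R01901. Lower calls among the 14 regions (1) numbered 2 with median centring, 3 with the replicate block and median centring together (24.5% of the list), and 0 to 7 when 1 library was left out. Higher calls (0) numbered 1, R23191, with the block and median centring (20.7% of the list), and 0 when 1 library was left out. Over all regions, higher calls (1917) numbered 3375 with median centring, 3307 with quantile normalization, 4949 with the block and median centring, 3785 with voom on the reads in regions, and 1101 to 3119 when 1 library was left out. Lower calls (1632) numbered 3622, 3278, 5864 and 3791 in the same order, 2502 at a threshold of 0.10, and 59 to 7547 when 1 library was left out. Without Zscan4+ replicate 2, the log2 ratio of summed RPM was -0.89 for Lefty1 and Lefty2 and -0.99 for Nodal, against -0.44 each. Leaving out each library in turn gave -0.89 to -0.09 for Lefty1 and Lefty2, -0.99 to -0.04 for Nodal and -0.48 to 0.04 for Tdgf1. Such fits take the spread of the single remaining library from the other group. Depth limits R01901 most, with 2 to 16 reads per library.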
